A study of Mus musculus with 6 samples.

Results

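The urea cycle and the breakdown of amino acids were followed through a list of 45 genes in the livers of mice given an intestinal hormone. The members were chosen by gene symbol, and a member was measured where the array held a probe set paired with that gene and no other. By this rule 42 of the 45 genes were measured, with 50 of the 22690 probe sets of the array. Gls2, a liver glutaminase, Amt, a subunit of the glycine cleavage system, and Ass1, the argininosuccinate synthase of the urea cycle, had no probe set of their own and were not analysed here.

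All the mice were wild-type C57Bl/6 males from a commercial breeder, and all went without food over the 6 h between the injection and the taking of the liver. They received vehicle, purified FGF15 or recombinant FGF19 into the jugular vein, and total liver RNA was hybridised to Mouse Genome 430A 2.0 arrays, with 2 arrays for each of the 3 groups. The sources used here give no dose, no composition of the vehicle and no age of the mice. Nothing in the labels says whether a group's 2 arrays stand for 2 mice, so the p-values below measure only how far these arrays differ, and that spread may be technical.

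FGF15 of the mouse and FGF19 of humans are counterparts: both are released by the ileum in response to bile acids and act on the liver through the receptor FGFR4 and its partner beta-Klotho. The liver removes the nitrogen of amino acids by passing it to glutamate and aspartate and from there into the urea cycle, while the carbon chains go to glucose, ketone bodies or oxidation. In fasting, glucagon and glucocorticoids raise the enzymes of this route, and insulin opposes them.

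The arrays themselves set a limit on what can be read from these genes. The values are linear signals with nearly the same trimmed mean on every array, and the median signal of an array ran from 50.8 to 61.4. One array stood apart: FGF19 replicate 1 gave the lowest signal of the 6 arrays for 150 of the 188 probe sets with a mean signal over 5000, a limit set after the values were seen. Its 3′ to 5′ ratio for beta-actin was 1.63, while the other 5 arrays gave 1.30 to 1.39, and its ratio for pyruvate carboxylase was 3.38, against 2.27 to 2.73. Among the members with such bright probe sets, it was the lowest array for 8 of 10 (the 10 are Ahcy, Arg1, Bhmt, Cdo1, Cps1, Gnmt, Hpd, Mat1a, Oat and Tdo2), against 12 of the 32 other members. The part of this array in any change of a bright member was not tested, and the calls of bright members with FGF19 are given below without it too.

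**Figure D1:**
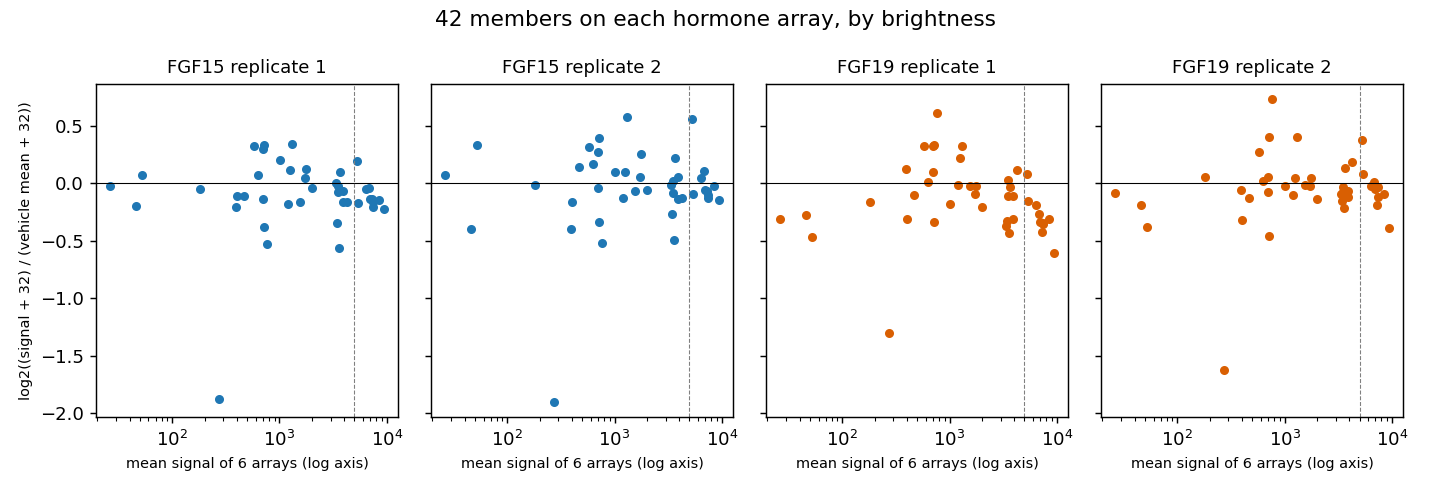
Each point is 1 of the 42 members on 1 of the 4 hormone arrays; the horizontal axis is its mean signal over the 6 arrays (log axis) and the vertical axis its log2 difference from the mean of the 2 vehicle arrays, on log2(signal + 32); the dashed line marks a mean signal of 5000. The 10 members with a mean signal over 5000 had a median difference of -0.32 on FGF19 replicate 1, of -0.04 on FGF19 replicate 2, and of -0.14 and -0.06 on FGF15 replicates 1 and 2.

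The plot of members by brightness shows that the brightest members sat below the vehicle level on FGF19 replicate 1 more than on the other hormone arrays. The summed signal of the 42 members was 128721 and 128479 with vehicle, 118997 and 126531 with FGF15, and 110137 and 124095 with FGF19. The sum was thus lowest on FGF19 replicate 1, and on each hormone array it was below both vehicle arrays. In RNA from whole liver, fewer cells of a type and less RNA per cell cannot be told apart.

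Against vehicle, FGF15 lowered 5 members and raised 3, as called by limma at a Benjamini-Hochberg adjusted p under 0.05 over the 9685 genes tested. The 5 that fell were Ddc, Got1, Csad, Cth and Prodh, and the 3 that rose were Dmgdh, Pcca and Pccb. The 5 lower calls stand beside a background of 6.67% of all tested genes called lower, and the 3 higher calls beside 5.91% called higher. In all, 19.0% of the measured members were called, against 12.6% of all genes. The median absolute log2 change was 0.14 for the members and 0.17 for all genes, so the higher share called did not go with a larger typical change. All members but Bcat2, Afmid and Kynu had a standard error below 0.13, the median over all genes. A smaller standard error lets a smaller change be called, and its part in the higher share was not tested. The list was also chosen with earlier results of these data known. The median log2 change of the 42 members was -0.06, near the -0.05 of all genes tested. The 34 members that were not called ran from -0.30 (Gldc) to 0.38 (Oat), with 12 above and 22 below 0. Leaving out either vehicle array gave 1 higher and 3 lower calls, without FGF15 replicate 2 there were 2 and 4, and without either FGF19 array there were 5 and 6.

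Against the same 2 vehicle arrays, FGF19 lowered 6 members and raised 4. Ddc, Bhmt, Prodh, Got1, Hpd and Nags fell, and Csad, Dmgdh, Pccb and Pcca rose. The background was 7.27% of all tested genes called lower and 6.29% called higher, and 23.8% of the members were called in either direction against 13.6% of all genes. The median was -0.10 for the members and -0.07 for all genes, and the 32 members not called ran from -0.42 (Bcat2) to 0.23 (Oat). The median absolute log2 change was 0.19 for the members and 0.18 for all genes. The standard errors were those of the FGF15 comparison, and their part in this higher share was not tested either. The lower calls rested on which arrays were used: there were 3 without FGF19 replicate 1 (Bhmt, Ddc and Prodh) and 13 without FGF19 replicate 2 (Arg1, Bhmt, Cps1, Cth, Ddc, Glud1, Glul, Gnmt, Got1, Hpd, Mat1a, Prodh and Tdo2). With the first vehicle array left out there were 4, and with the second 2. The higher calls came to 2 and 1 with the first and the second vehicle array left out, and to 3 without FGF19 replicate 1.

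The scale of the arrays also moved the split between higher and lower calls. When each array was centred on its median, the median change of all genes moved from -0.05 to 0.07 for FGF15 and from -0.07 to 0.07 for FGF19. On that scale FGF15 gave 7 higher and 3 lower members and FGF19 7 higher and 2 lower. Ddc was called lower with both hormones on both scales, as were Dmgdh, Pcca and Pccb called higher. The share of all genes called is not given for the centred scale or for the fits with an array left out. Shifts in the member counts between fits can therefore not be read as particular to the members.

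Compared directly, FGF19 and FGF15 differed for 2 members, Csad and Aass, both higher with FGF19. The background was 2.41% of tested genes called higher with FGF19 and 1.89% called lower, and 4.76% of the members were called against 4.30% of all genes. The median log2 difference was -0.09 for the members and -0.02 for all genes. Of the 40 members not called, 28 lay below 0 and 12 above. No member was called lower with FGF19 by limma, while 7 were at an unadjusted p under 0.05, and without FGF19 replicate 2 there were 4 such calls (Bhmt, Glul, Hpd and Mat1a). Aass was no longer called with any array but FGF19 replicate 1 left out, and Csad was the only higher call with either vehicle array or either FGF15 array left out. Since the changes of FGF15 and of FGF19 use the same vehicle arrays, they are given below side by side.

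**Figure D2:**
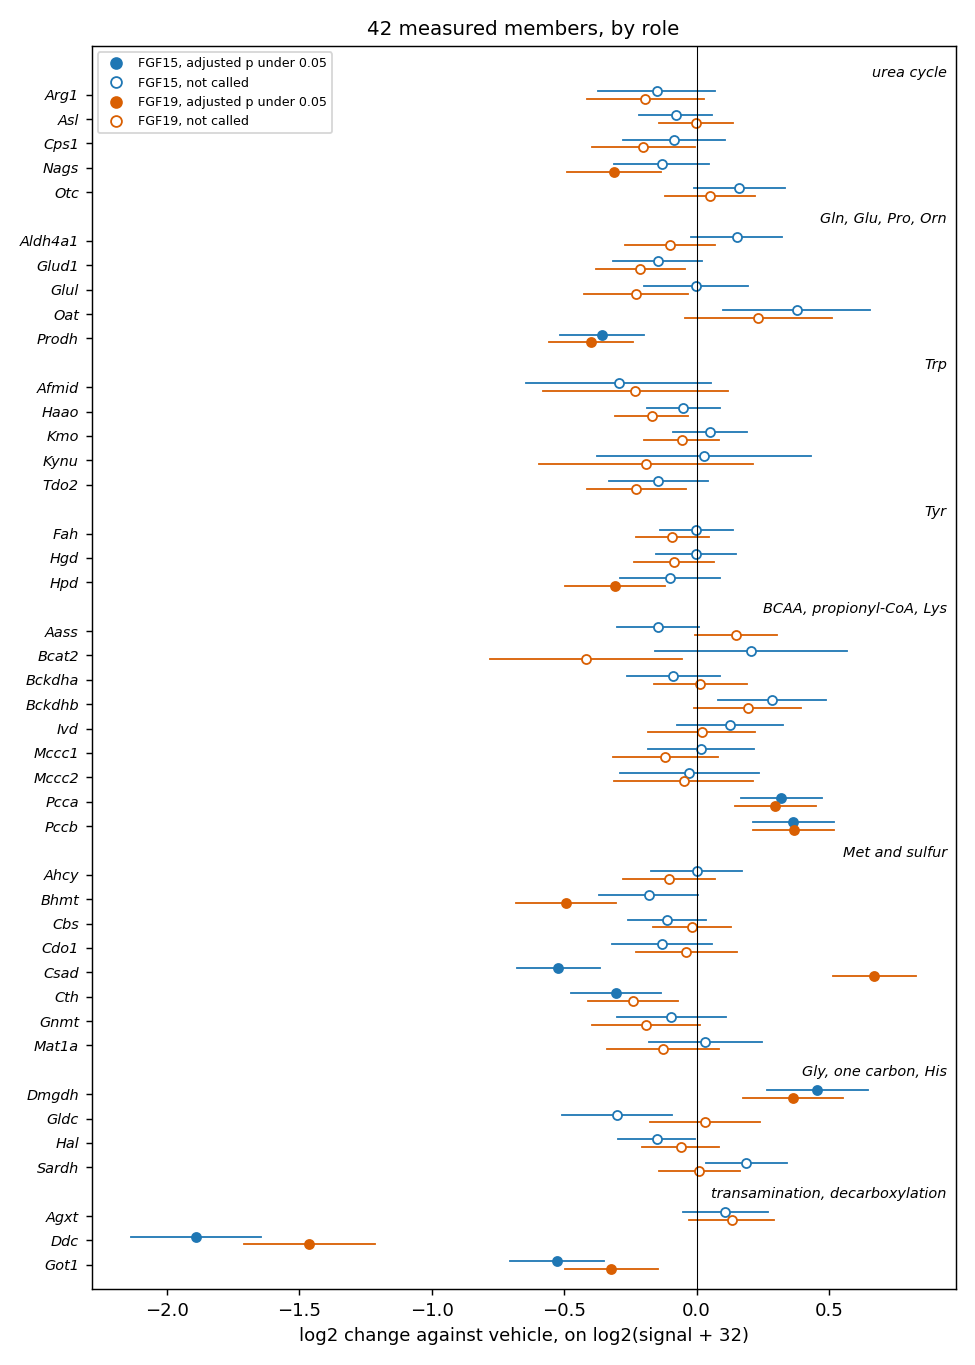
The log2 change against vehicle is plotted for each of the 42 measured members, grouped by role, with 1 point for FGF15 and 1 for FGF19; bars are 95% confidence intervals from limma, and filled points have an adjusted p under 0.05. Ddc stands farthest from 0 with both hormones, and Csad is the one member called in opposite directions.

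The plot of changes by role shows filled points in 7 of the 8 roles. None of the tryptophan genes was called.

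Ddc, the aromatic L-amino acid decarboxylase that turns DOPA into dopamine and also acts on other aromatic amino acids, showed the largest change of the measured members with each hormone. Its signal (probe set 1426215_at) was 526 and 526 with vehicle, 119.9 and 117 with FGF15 and 194 and 149 with FGF19. All 4 hormone arrays lay far below both vehicle arrays. The group means were 526 ± 0.202 with vehicle, 118 ± 2.03 with FGF15 and 172 ± 31.4 with FGF19 (SD, n = 2). Ddc fell by 1.89 ± 0.11 (SE) on the log2(signal + 32) scale with FGF15, a 3.71-fold decrease (limma adjusted p = 4.8e-06). With FGF19 the log2 change was -1.46 ± 0.11, a 2.76-fold decrease (limma adjusted p = 2.2e-05). These folds, like those given below, are on the scale of signal + 32, which shrinks them. The group means of the linear signal were 4.44-fold lower with FGF15 and 3.06-fold lower with FGF19. The arrays of the hormones did not overlap, FGF15 being the lower, but the difference of 0.43 ± 0.11 missed the threshold (95% confidence interval 0.18 to 0.67, limma adjusted p = 0.0624). Ddc kept its call against vehicle under all 20 alternative settings with each hormone. Its difference between the hormones was called in 4 of them: when arrays were centred, with cyclic loess scaling, with the 50th percentile filter and without FGF19 replicate 2.

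Got1, the cytosolic aspartate aminotransferase, exchanges the amino groups of aspartate and glutamate. Its signal (1450970_at) was 4314 and 4244 with vehicle, 2887 and 3034 with FGF15 and 3172 and 3678 with FGF19. Every hormone array was below both vehicle arrays, and the FGF15 arrays were below the FGF19 arrays. The log2 change was -0.53 ± 0.08 with FGF15 (limma adjusted p = 0.0019) and -0.32 ± 0.08 with FGF19 (limma adjusted p = 0.0242). The FGF15 call held under all 20 alternatives. A value in brackets after an array is the adjusted p without it, and a pair of values after either array of a group gives it without replicate 1 and without replicate 2. The FGF19 call had an adjusted p of 0.0031 to 0.223 over them and ended without FGF19 replicate 1 (0.0622) or either vehicle array (0.147 and 0.108), and also when arrays were centred (0.223), with no filter on low signals (0.0536), with every probe set tested and no filter (0.0708) and with eBayes without an intensity trend (0.119). The third gene of this role, Agxt, the alanine-glyoxylate aminotransferase, was not called, with log2 changes of 0.11 ± 0.07 and 0.13 ± 0.07.

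Csad was the member on which the hormones differed most. It encodes cysteine sulfinic acid decarboxylase, which makes hypotaurine, the precursor of the taurine that mouse liver joins to bile acids. Its signal (1427981_a_at) was 681 and 703 with vehicle, 469.7 and 475 with FGF15 and 1072 and 1174 with FGF19. The 3 groups did not overlap: both FGF15 arrays were below vehicle and both FGF19 arrays above it. Csad fell with FGF15, with a log2 change of -0.52 ± 0.07 and a 1.44-fold decrease (limma adjusted p = 0.00104). It rose with FGF19, by 0.67 ± 0.07 or 1.59-fold (limma adjusted p = 2.1e-04). The direct difference was 1.19 ± 0.07, 2.29-fold higher with FGF19 (limma adjusted p = 8.7e-06). All 3 calls held under all 20 alternatives.

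Of the 7 other sulfur and methionine genes, Cth and Bhmt were called. Cth, the cystathionine gamma-lyase that makes cysteine from cystathionine, had a signal of 3963 and 3770.0 with vehicle, 3030.5 and 3216 with FGF15 and 3074 and 3472 with FGF19. The hormone arrays were all below the vehicle arrays, and the FGF15 and FGF19 arrays overlapped. Its log2 change of -0.31 ± 0.08 with FGF15 passed (limma adjusted p = 0.0275) and that of -0.24 ± 0.08 with FGF19 did not (limma adjusted p = 0.0655). The FGF19 value of Cth passed in 3 of the 20 alternatives: quantile and cyclic loess scaling, and without FGF19 replicate 2. Over the alternatives the FGF15 adjusted p was 0.00378 to 0.192, and the call ended without either FGF15 array (0.142 and 0.0765) or either vehicle array (0.192 and 0.0995), and when arrays were centred (0.191), with no filter on low signals (0.058), with every probe set tested and no filter (0.0754) and with eBayes without an intensity trend (0.132).

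Bhmt, which remakes methionine from homocysteine with a methyl group of betaine, is one of the 10 bright members. Its signal (1450624_at) was 10841 and 11011 with vehicle, 9360.3 and 9909 with FGF15 and 7179 and 8366 with FGF19. Both FGF19 arrays were below every other array, with replicate 1 the lowest. Bhmt fell with FGF19, with a log2 change of -0.49 ± 0.08 (limma adjusted p = 0.00396). With FGF15 the log2 value was -0.18 ± 0.08 (limma adjusted p = 0.209), and the difference between the hormones, -0.31 ± 0.08, missed the threshold (limma adjusted p = 0.0741). The FGF15 value of Bhmt passed, as a lower level, in 4 of the 20 alternatives: cyclic loess scaling, only the arrays compared, and without either FGF19 array. Without FGF19 replicate 1 the log2 change of Bhmt with FGF19 was -0.38 (adjusted p = 0.00367), and without vehicle replicate 2 (0.0515) the call ended; the range of its adjusted p was 1.3e-04 to 0.0515. The difference between the hormones was called in 4 of the 20 alternatives: quantile and cyclic loess scaling, the replicate block, and without FGF19 replicate 2.

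Mat1a, which makes S-adenosylmethionine, Gnmt, which uses it to methylate glycine, Ahcy, which splits S-adenosylhomocysteine, Cbs, which joins homocysteine to serine, and Cdo1, which oxidises cysteine to the substrate of Csad, were not called in any of the 3 comparisons. Their log2 changes with FGF15 were 0.03, -0.10, 0.00, -0.11 and -0.13, in that order. With FGF19 they were -0.13, -0.19, -0.10, -0.02 and -0.04. All but Cbs are bright members, and without FGF19 replicate 1 the FGF19 values of Mat1a, Gnmt, Ahcy and Cdo1 were 0.01, -0.05, -0.02 and 0.08. Without FGF19 replicate 2, Mat1a and Gnmt were called lower with FGF19, at -0.27 and -0.33 (limma adjusted p = 0.0393 and 0.0072). Cdo1, the step just before Csad, read 5758 and 5451 with vehicle, 4987 and 5247 with FGF15 and 5025 and 5916 with FGF19, and its hormone arrays overlapped the vehicle arrays with FGF19 but not with FGF15.

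**Figure D3:**
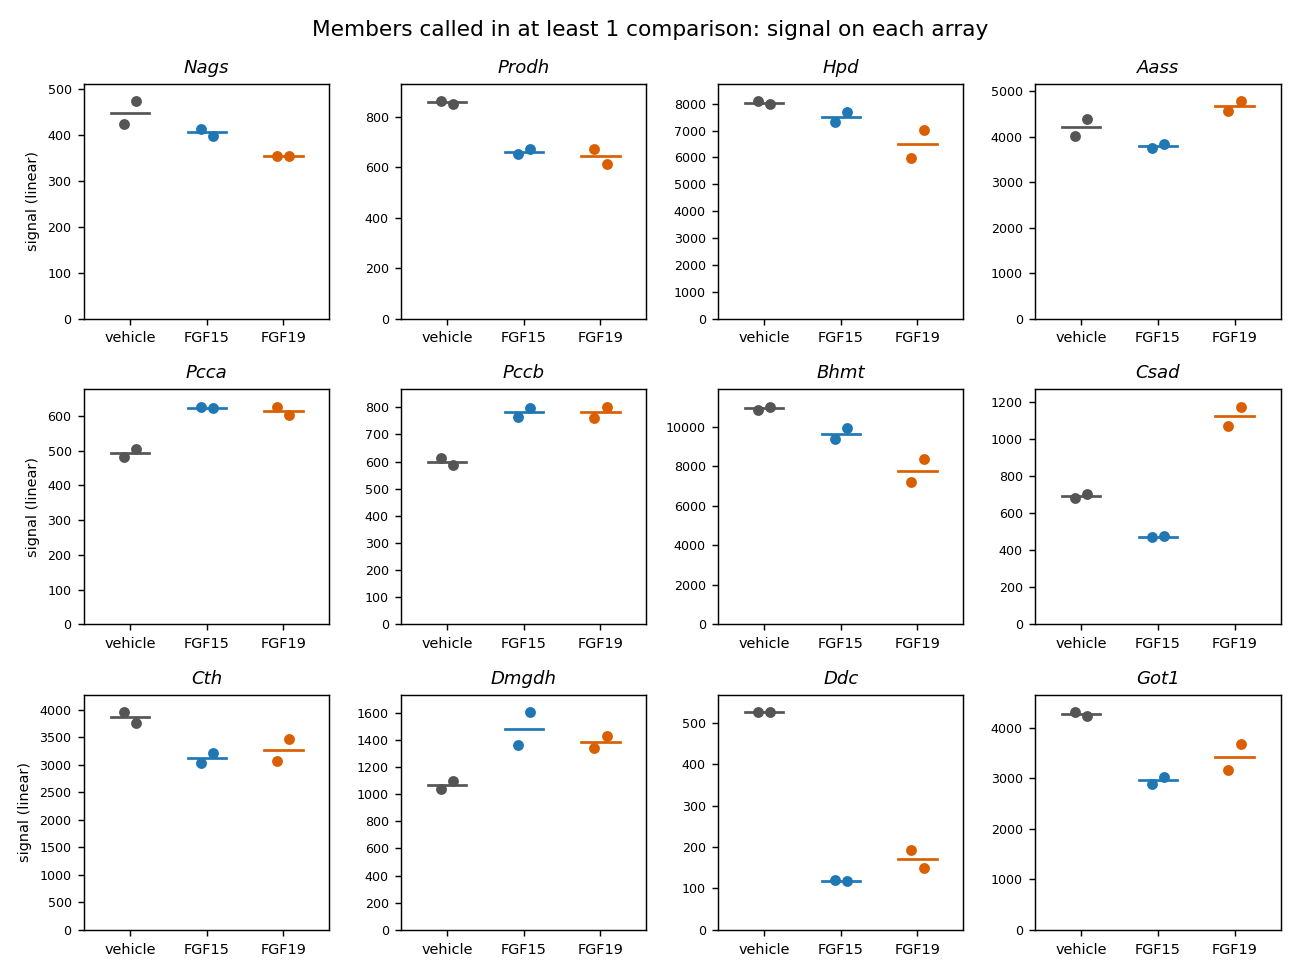
The linear signal on each of the 6 arrays is plotted for the 12 members called in at least 1 of the 3 comparisons, with a point for each array and a short line for the group mean; each vertical axis starts at 0 and has its own scale. Ddc fell from 526 on both vehicle arrays to between 117 and 194 on the hormone arrays, while Csad lay below vehicle with FGF15 and above it with FGF19.

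The plot of signals by array shows how close the 2 arrays of a group lay for most called members. For Ddc, Csad, Cth, Got1, Bhmt, Hpd, Prodh and Pccb the FGF19 arrays were the widest pair on this linear scale. The widest pair was vehicle for Aass, Nags and Pcca and FGF15 for Dmgdh.

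Promoters are shown for the 2 members with the largest changes, Ddc and Csad, for Got1, which fell with both hormones, and for Pccb, which rose with both. RefSeq (GRCm38.p6) gave a window for 11 of the 12 called members, 14 windows in all, each from 250 bases before to 50 after a start. Each is printed 5′ to 3′ on the strand of the gene, with every motif match in capitals.
Ddc, chr11:11890359-11890658 (minus strand): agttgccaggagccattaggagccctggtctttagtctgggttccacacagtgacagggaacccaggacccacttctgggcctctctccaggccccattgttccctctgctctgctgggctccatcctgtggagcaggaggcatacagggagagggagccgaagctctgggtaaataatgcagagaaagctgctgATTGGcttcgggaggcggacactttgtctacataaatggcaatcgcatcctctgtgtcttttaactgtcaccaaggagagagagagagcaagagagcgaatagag
Ddc, chr11:11898095-11898394 (minus strand): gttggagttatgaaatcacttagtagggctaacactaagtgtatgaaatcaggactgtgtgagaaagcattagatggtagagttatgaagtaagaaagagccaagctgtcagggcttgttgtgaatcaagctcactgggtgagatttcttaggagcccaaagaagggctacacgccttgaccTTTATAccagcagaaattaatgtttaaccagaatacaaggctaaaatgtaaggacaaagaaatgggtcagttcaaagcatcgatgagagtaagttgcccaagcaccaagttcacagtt
Csad, chr15:102188994-102189293 (minus strand): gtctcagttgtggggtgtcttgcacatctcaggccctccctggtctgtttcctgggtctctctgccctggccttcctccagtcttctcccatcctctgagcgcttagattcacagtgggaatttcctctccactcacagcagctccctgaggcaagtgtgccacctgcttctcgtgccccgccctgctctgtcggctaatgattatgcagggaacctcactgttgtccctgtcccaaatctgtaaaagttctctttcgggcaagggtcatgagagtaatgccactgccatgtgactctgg
Csad, chr15:102205003-102205302 (minus strand): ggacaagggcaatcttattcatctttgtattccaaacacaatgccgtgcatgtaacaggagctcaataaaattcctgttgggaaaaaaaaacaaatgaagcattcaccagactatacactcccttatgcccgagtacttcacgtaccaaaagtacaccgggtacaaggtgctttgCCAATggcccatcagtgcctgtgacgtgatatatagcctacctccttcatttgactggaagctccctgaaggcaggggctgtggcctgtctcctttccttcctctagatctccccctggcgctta
Got1, chr19:43524556-43524855 (minus strand): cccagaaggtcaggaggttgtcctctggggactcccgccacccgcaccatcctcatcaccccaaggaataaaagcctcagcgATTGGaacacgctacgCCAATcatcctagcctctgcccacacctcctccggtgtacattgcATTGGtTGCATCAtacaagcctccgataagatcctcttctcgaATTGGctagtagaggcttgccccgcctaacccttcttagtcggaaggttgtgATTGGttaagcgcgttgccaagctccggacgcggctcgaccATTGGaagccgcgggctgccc
Pccb, chr9:101034835-101035134 (minus strand): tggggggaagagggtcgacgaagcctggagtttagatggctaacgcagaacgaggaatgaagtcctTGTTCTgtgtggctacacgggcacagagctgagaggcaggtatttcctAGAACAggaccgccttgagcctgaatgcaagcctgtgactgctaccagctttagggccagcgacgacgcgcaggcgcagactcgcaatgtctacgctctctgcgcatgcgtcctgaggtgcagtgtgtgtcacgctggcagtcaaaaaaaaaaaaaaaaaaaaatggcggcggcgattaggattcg
The motifs were searched as exact letters on both strands, and TATAAA and CCAAT were added after the changes were known. CCAAT, the CCAAT box, stood in 7 of the 14 windows, and 37.4% of all 32851 promoter windows hold it. Got1 had 6 such matches, at -168, -152, -107, -64, -12 and 30 relative to the start, and the second Csad window 1 at -75. TGATGCA, the core of the amino acid response element bound by ATF4, stood in the Got1 window alone, at -101 on the opposite strand, and 3.15% of all windows hold it. This match of Got1 does not share bases with a CCAAT match. TGTTCT, a glucocorticoid receptor half-site, stood in the Pccb window at -184 and, on the opposite strand, at -136, and in no other of the 14 windows, against 19% of all windows. TATAAA, the TATA box, was found once, in the second Ddc window at -68 on the opposite strand, against 13.6% of all windows. The letters TGACGTC of the cAMP response element, GTAAACA of forkhead factors and TTGCGCA of C/EBP factors were in none of the 14 windows, and in 3.21%, 3.65% and 2.02% of all windows. These matches describe letters in a window and nothing was measured at them here.

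Of the urea cycle, 1 of the 5 measured genes was called. Nags makes N-acetylglutamate, without which carbamoyl phosphate synthase is inactive. Its signal (1425230_at) was 423 and 474 with vehicle, 413 and 398 with FGF15 and 354 and 354 with FGF19. Every hormone array was below both vehicle arrays, the FGF19 arrays lowest. Nags fell with FGF19, with a log2 change of -0.31 ± 0.08 (limma adjusted p = 0.0294), and with FGF15 the value was -0.13 ± 0.08 (limma adjusted p = 0.336). The adjusted p of the FGF19 change was 0.0202 to 0.263 over the alternatives, and the call ended without either FGF19 array (0.11 and 0.108) or vehicle replicate 2 (0.181), and when arrays were centred (0.263), with every probe set tested and no filter (0.0546) and with eBayes without an intensity trend (0.101).

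The 4 enzymes of the cycle itself that were measured were not called in any comparison. Cps1, which makes carbamoyl phosphate from ammonia, had a signal (1455540_at) of 9162 and 9028 with vehicle, 8207 and 8962 with FGF15 and 7328 and 8538 with FGF19, and its log2 changes were -0.08 ± 0.09 with FGF15 and -0.20 ± 0.09 with FGF19. Otc, which makes citrulline, read 3508 and 3439 with vehicle, 3732 and 4052 with FGF15 and 3393 and 3818 with FGF19 (1420525_a_at), with changes of 0.16 ± 0.08 and 0.05 ± 0.08. Asl, which splits argininosuccinate, read 3603 and 3579 with vehicle, 3409 and 3386 with FGF15 and 3675 and 3504 with FGF19 (1448350_at), with changes of -0.08 ± 0.06 and 0.00 ± 0.06. These values were all small beside the change of Ddc. Arg1, the arginase that releases urea, read 7945 and 8173 with vehicle, 6990.1 and 7532 with FGF15 and 6312 and 7864 with FGF19 (1419549_at), with changes of -0.15 ± 0.10 and -0.19 ± 0.10. The 95% confidence intervals of the FGF15 changes were -0.28 to 0.11 for Cps1, -0.01 to 0.33 for Otc, -0.22 to 0.06 for Asl and -0.37 to 0.07 for Arg1. For FGF19 they were -0.39 to -0.01, -0.12 to 0.22, -0.14 to 0.14 and -0.41 to 0.03. For each of these 4 transcripts a 2-fold difference between the groups of arrays lies outside both intervals. The intervals hold for these arrays on the deposited scale only, since their spread may be technical. Cps1 and Arg1 are bright members, and without FGF19 replicate 2 both were called lower with FGF19 (adjusted p = 0.0165 and 0.00814), whereas without FGF19 replicate 1 their log2 changes were -0.09 and -0.04 (adjusted p = 0.448 and 0.795). Over all alternatives the adjusted p with FGF19 was 0.0165 to 0.786 for Cps1 and 0.00814 to 0.976 for Arg1. Otc had a second probe set (1436615_a_at), with log2 values of 0.02 ± 0.06 and -0.04 ± 0.06, and another (1425540_at) that read 93.5 and 47.2 with vehicle, 104 and 66.0 with FGF15 and 58.1 and 61.1 with FGF19.

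Among the genes of glutamine, glutamate, proline and ornithine, 1 of 5 was called, with both hormones. Prodh, the proline dehydrogenase that opens proline oxidation in mitochondria, had a signal (1417629_at) of 862 and 851 with vehicle, 651 and 674 with FGF15 and 673 and 613 with FGF19. The hormone arrays were all below the vehicle arrays and overlapped each other. Prodh fell with FGF15, with a log2 change of -0.36 ± 0.07 (limma adjusted p = 0.00956), and with FGF19, with -0.40 ± 0.07 (limma adjusted p = 0.00502). The FGF15 call, whose adjusted p was 0.00328 to 0.0891 over the alternatives, ended without either vehicle array (0.0778 and 0.0602), and when arrays were centred (0.0891) and with eBayes without an intensity trend (0.0747). The FGF19 call, at 0.00166 to 0.0701, ended when arrays were centred (0.0701) and with eBayes without an intensity trend (0.0541). Aldh4a1, the next enzyme of proline oxidation, was not called, at 0.15 ± 0.08 and -0.10 ± 0.08.

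Oat, which turns ornithine into glutamate semialdehyde, had a signal (1416452_at) of 4428 and 4714 with vehicle, 5236 and 6749 with FGF15 and 4852 and 5956 with FGF19. Every hormone array was above both vehicle arrays, but the pairs were wide. Its log2 values were 0.38 ± 0.12 with FGF15 (limma adjusted p = 0.0793) and 0.23 ± 0.12 with FGF19 (limma adjusted p = 0.252), and neither passed. The FGF15 value passed in 8 of the 20 alternatives: with quantile, median or cyclic loess scaling, with only the arrays compared, with the replicate block, and without FGF15 replicate 1, FGF19 replicate 1 or FGF19 replicate 2 (adjusted p of 0.0264 to 0.42 with each array left out). Without FGF19 replicate 1 the FGF19 value was 0.38 (limma adjusted p = 0.11). Glud1, the glutamate dehydrogenase that releases ammonia in mitochondria, was not called, at -0.15 ± 0.08 and -0.21 ± 0.08.

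Glul, which makes glutamine in the hepatocytes around the central vein, had 2 probe sets that disagreed on FGF15. The brighter (1426236_a_at) read 3563 and 3450.4 with vehicle, 3516 and 3483 with FGF15 and 2710.4 and 3293 with FGF19, with log2 values of 0.00 ± 0.09 and -0.23 ± 0.09, neither called. The other (1426235_a_at) read 1508 and 1568 with vehicle, 1298 and 1280.4 with FGF15 and 1272 and 1274 with FGF19, with all 4 hormone arrays below the vehicle arrays. When every probe set past the filter was tested on its own, its log2 values of -0.25 ± 0.06 with FGF15 and -0.27 ± 0.06 with FGF19 passed (limma adjusted p = 0.0351 and 0.0256), as they did with no filter (0.0439 and 0.0345). The direction for Glul with FGF15 was therefore not settled by these probe sets. The second probe sets of Cbs, Glud1, Ivd, Sardh and Tdo2 were not called in any comparison in either fit.

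The 5 genes of tryptophan breakdown were not called with either hormone. Tdo2, the dioxygenase that opens the kynurenine route, had a signal (1419093_at) of 8350.3 and 7965 with vehicle, 7274 and 7481 with FGF15 and 6436 and 7522 with FGF19. All 4 hormone arrays were below both vehicle arrays, and the log2 values were -0.14 ± 0.08 with FGF15 (limma adjusted p = 0.315) and -0.23 ± 0.08 with FGF19 (limma adjusted p = 0.105). Without FGF19 replicate 2 the FGF19 value was -0.34 and passed (adjusted p = 0.00575, within a range of 0.00575 to 0.402 with each array left out), and without FGF19 replicate 1 it was -0.12 (adjusted p = 0.256). Kmo, the kynurenine hydroxylase, read 0.05 and -0.06, and Haao, the dioxygenase whose product leads to NAD, -0.05 and -0.17. Afmid, the kynurenine formamidase, read 60.6 and 51.3 with vehicle, 45.0 and 34.7 with FGF15 and 40.5 and 45.1 with FGF19. Kynu, the kynureninase, read 33.4 and 23.4 with vehicle, 27.3 and 31.5 with FGF15 and 16.7 and 25.1 with FGF19. Both lay near the pseudocount of 32, so that their log2 values are compressed.

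Of the 3 tyrosine genes, Hpd was called with FGF19. It encodes the dioxygenase that makes homogentisate and is a bright member. Its signal (1424618_at) was 8098 and 7989.7 with vehicle, 7321 and 7682 with FGF15 and 5983 and 7038 with FGF19. The FGF19 arrays were below the other 4, with replicate 1 the lowest. Hpd fell with FGF19, with a log2 change of -0.31 ± 0.08 (limma adjusted p = 0.0383), and the FGF15 value was -0.10 ± 0.08 (limma adjusted p = 0.497). Without FGF19 replicate 1 the value was -0.19. The adjusted p was 0.00194 to 0.299 over the alternatives, and the call ended without either FGF15 array (0.0624 and 0.0639), FGF19 replicate 1 (0.0672) or either vehicle array (0.203 and 0.154), and with quantile normalization (0.0563), when arrays were centred (0.299), with no filter on low signals (0.0909), with every probe set tested and no filter (0.114), with eBayes without an intensity trend (0.137) and with only the arrays compared in the fit (0.0631). Hgd and Fah, the next and the last enzyme of the route, were not called, with values of 0.00 and 0.00 with FGF15 and -0.09 and -0.09 with FGF19.

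Among the 9 genes of branched chain, propionyl-CoA and lysine breakdown, Pcca and Pccb rose with both hormones. They encode the subunits of propionyl-CoA carboxylase, which carries the carbon of isoleucine, valine, methionine and threonine towards succinyl-CoA. Pccb had a signal (1450969_at) of 613 and 586 with vehicle, 764 and 798 with FGF15 and 762 and 803 with FGF19, and Pcca (1451405_at) of 483 and 506 with vehicle, 627 and 622 with FGF15 and 626 and 604 with FGF19. For both genes each hormone array was above both vehicle arrays. Pccb changed by 0.36 ± 0.07 with FGF15 (limma adjusted p = 0.00719) and 0.37 ± 0.07 with FGF19 (limma adjusted p = 0.00652). Pcca changed by 0.32 ± 0.07 (limma adjusted p = 0.0139) and 0.30 ± 0.07 (limma adjusted p = 0.0179). Over both subunits and hormones the increase was between 1.23-fold and 1.29-fold. These calls were near the limit of the design: over the alternatives the adjusted p of Pccb was 0.00194 to 0.0675 with FGF15 and 0.00106 to 0.0617 with FGF19, and that of Pcca 0.00412 to 0.11 and 0.00324 to 0.13. The Pccb calls ended without vehicle replicate 2 (0.0675) with FGF15 and without vehicle replicate 2 (0.0617) with FGF19. The Pcca call with FGF15 ended without either FGF15 array (0.0552 and 0.0574) or either vehicle array (0.11 and 0.0565), that with FGF19 without FGF19 replicate 1 (0.0923) or either vehicle array (0.13 and 0.064), and all 4 calls with eBayes without an intensity trend.

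Aass, the bifunctional enzyme that opens lysine breakdown, was called between the hormones. Its signal (1423523_at) was 4024 and 4395 with vehicle, 3752 and 3847 with FGF15 and 4562 and 4781 with FGF19. The FGF15 arrays were the lowest and the FGF19 arrays the highest, with vehicle between them. Against vehicle neither log2 value passed, -0.15 ± 0.07 with FGF15 (limma adjusted p = 0.22) and 0.15 ± 0.07 with FGF19 (limma adjusted p = 0.19). The difference of 0.30 ± 0.07 passed (limma adjusted p = 0.0431, 0.00349 to 0.231 over the alternatives), but not without either FGF15 array (0.231 and 0.137), FGF19 replicate 2 (0.0838) or either vehicle array (0.082 and 0.0833), nor when arrays were centred (0.0613), with no filter on low signals (0.0941), with every probe set tested on its own (0.0566), with every probe set tested and no filter (0.127), with eBayes without an intensity trend (0.215) and with only the arrays compared in the fit (0.0833).

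Bckdha and Bckdhb, which encode the E1 subunits of the branched chain keto acid dehydrogenase, did not read alike. Bckdha read 729 and 707 with vehicle, 652 and 696 with FGF15 and 773 and 679.7 with FGF19, with log2 values of -0.09 ± 0.08 and 0.01 ± 0.08. Bckdhb read 643 and 603 with vehicle, 772 and 759 with FGF15 and 789 and 649 with FGF19, with values of 0.28 ± 0.09 and 0.19 ± 0.09 (limma adjusted p = 0.0705 and 0.197). Every hormone array was above both vehicle arrays for Bckdhb, which was called higher with FGF15 without either FGF19 array, with FGF19 without FGF19 replicate 2, and with both when arrays were centred. Bcat2, the mitochondrial aminotransferase of these amino acids, is expressed mainly outside the liver and read 61.9 and 47.8 with vehicle, 59.1 and 77.1 with FGF15 and 30.8 and 34.8 with FGF19. At these low signals its difference between the hormones, -0.62 ± 0.16, was not called (limma adjusted p = 0.0657). Ivd, Mccc1 and Mccc2, of leucine breakdown, were not called, at 0.13, 0.02 and -0.03 with FGF15 and 0.02, -0.12 and -0.05 with FGF19.

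Of the 4 measured genes of glycine, choline-derived methyl groups and histidine, Dmgdh rose with both hormones. It encodes dimethylglycine dehydrogenase, which takes a methyl group from the product of Bhmt. Its signal (1452311_at) was 1035 and 1099 with vehicle, 1358 and 1604 with FGF15 and 1341 and 1426 with FGF19. Every hormone array was above both vehicle arrays, and the hormones overlapped. The log2 change was 0.46 ± 0.08 with FGF15 (limma adjusted p = 0.0066) and 0.37 ± 0.08 with FGF19 (limma adjusted p = 0.0187). The FGF15 call, at 0.0021 to 0.0692 over the alternatives, ended without vehicle replicate 1 (0.0692). The FGF19 call, at 0.00395 to 0.136, ended without FGF19 replicate 2 (0.0932) or either vehicle array (0.136 and 0.0633), and both ended with eBayes without an intensity trend. With every probe set tested and no filter the FGF19 call ended too (0.0557).

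Sardh, the sarcosine dehydrogenase of the next step, read 1692 and 1699 with vehicle, 1849 and 2025 with FGF15 and 1664 and 1753 with FGF19 and was not called, at 0.19 ± 0.07 (limma adjusted p = 0.109) and 0.01 ± 0.07; its FGF15 value passed when arrays were centred. Gldc, a subunit of the glycine cleavage system, read 418 and 416 with vehicle, 357 and 310.2 with FGF15 and 457 and 399 with FGF19, below vehicle on both FGF15 arrays, and its value of -0.30 ± 0.09 missed the threshold (limma adjusted p = 0.0646), as did the difference between the hormones, 0.33 ± 0.09 (limma adjusted p = 0.0824). The FGF15 value of Gldc passed, as a lower level, in 5 of the 20 alternatives: quantile and cyclic loess scaling, the 50th percentile filter, the replicate block, and without FGF15 replicate 1 (adjusted p of 0.0474 to 0.291 with each array left out). Hal, which opens histidine breakdown, was not called, at -0.15 ± 0.07 and -0.06 ± 0.07.

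The other genes of amino acid metabolism on the array, a list of 102 genes that excludes the members, were set beside them. Of these 82 had a probe set and 77 passed the filter on low signals. FGF15 raised 13 and lowered 9 of the 77, FGF19 raised 12 and lowered 11, and 5 were higher and 3 lower with FGF19 than with FGF15. Their medians were 0.01, 0.02 and -0.03, against -0.05, -0.07 and -0.02 over all genes. The shares called were 28.6%, 29.9% and 10.4%, beside 12.6%, 13.6% and 4.30% of all genes. Their median absolute log2 changes were 0.18, 0.18 and 0.10, against 0.17, 0.18 and 0.13 over all genes. Without vehicle replicate 1 the counts against vehicle were 5 higher and 7 lower for FGF15 and 5 and 5 for FGF19, and without vehicle replicate 2 they were 4 and 7 and 6 and 4. Without FGF15 replicate 1 or replicate 2 there were 7 or 6 higher with FGF15, without either FGF19 array 7 lower with FGF19, and between the hormones at most 1 was lower with any array left out. When arrays were centred, FGF15 raised 20 and lowered 6 of them and FGF19 raised 22 and lowered 5.

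**Figure D4:**
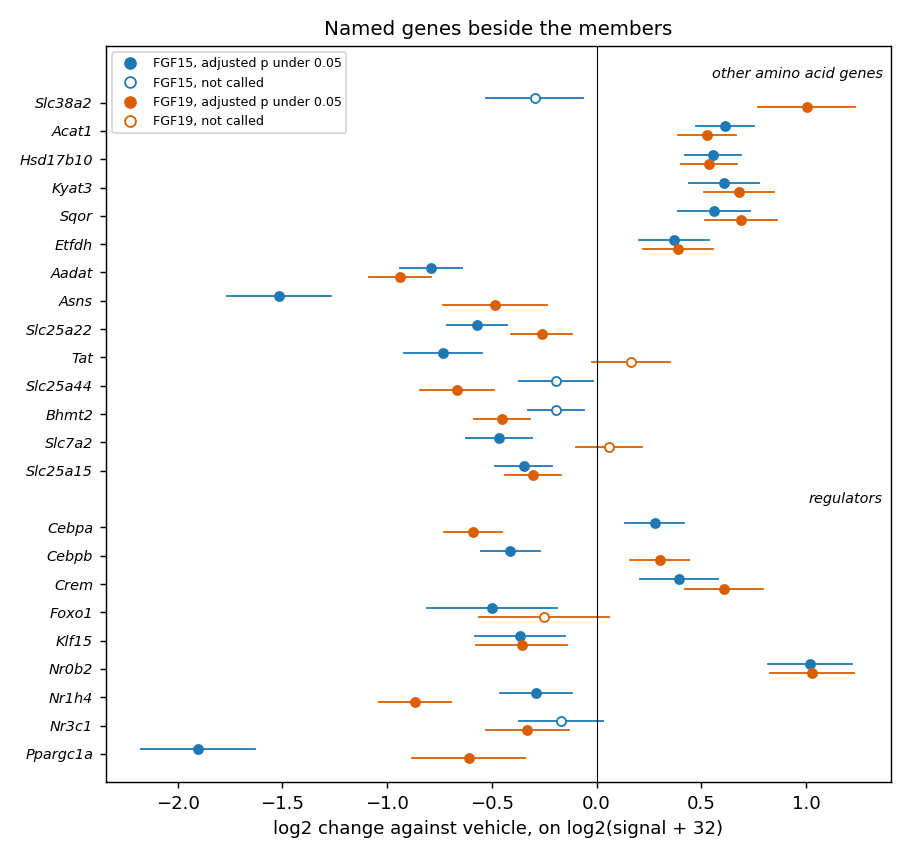
The log2 change against vehicle, with 95% confidence intervals from limma, is plotted for the named genes of amino acid metabolism outside the list and for the named regulators; filled points have an adjusted p under 0.05. Ppargc1a and Asns lie farther from 0 with FGF15 than with FGF19, and the Tat point is filled with FGF15 and the Slc38a2 point with FGF19.

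Some of these genes act next to the members that were called. Acat1 and Hsd17b10, which act in isoleucine breakdown upstream of propionyl-CoA carboxylase, rose with both hormones, Acat1 by 0.61 ± 0.06 and 0.53 ± 0.06 and Hsd17b10 by 0.56 ± 0.06 and 0.54 ± 0.06 (limma adjusted p from 1.9e-04 to 4.2e-04). Kyat3, a kynurenine aminotransferase, rose by 0.61 ± 0.07 and 0.68 ± 0.07 (limma adjusted p = 6.1e-04 and 3.0e-04). Aadat, an aminotransferase of lysine breakdown that also acts on kynurenine, fell, with a signal of 1225 and 1281 with vehicle, 708 and 714 with FGF15 and 656 and 621 with FGF19 and changes of -0.79 ± 0.07 and -0.94 ± 0.07 (limma adjusted p = 5.2e-05 and 1.5e-05). Sqor, which oxidises sulfide, rose by 0.56 ± 0.08 and 0.69 ± 0.08 (limma adjusted p = 0.00119 and 3.2e-04) on its brightest probe set, but the mean of its probe sets was not called (adjusted p = 0.208 and 0.0823). Etfdh, which passes electrons of Dmgdh and Sardh to the respiratory chain, changed by 0.37 ± 0.07 and 0.39 ± 0.07 (limma adjusted p = 0.01 and 0.00713), calls that ended without FGF15 replicate 1 (0.0504) or either vehicle array (0.0785 and 0.0634) with FGF15 and without either vehicle array (0.0614 and 0.0512) with FGF19, and both with eBayes without an intensity trend. Slc25a15, the mitochondrial ornithine carrier of the urea cycle, which was named after its values were seen, changed by -0.35 ± 0.06 and -0.31 ± 0.06 (limma adjusted p = 0.00436 and 0.00841), and these calls ended without vehicle replicate 1 (0.0636) with FGF15, without either vehicle array (0.0936 and 0.0684) with FGF19, and for both hormones when arrays were centred and with eBayes without an intensity trend.

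Tat, the tyrosine aminotransferase that supplies the substrate of Hpd, differed between the hormones. Its signal (1451557_at) was 6227 and 6116 with vehicle, 3670.3 and 3738 with FGF15 and 6355 and 7528 with FGF19. The FGF15 arrays were far below the other 4, and the FGF19 arrays were above vehicle. Tat fell with FGF15, with a log2 change of -0.73 ± 0.08 (limma adjusted p = 3.7e-04), while the FGF19 value was 0.16 ± 0.08 (limma adjusted p = 0.233), and the difference was 0.90 ± 0.08 (limma adjusted p = 2.2e-04). Asns, the asparagine synthetase, read 206 and 191 with vehicle, 50.4 and 47.0 with FGF15 and 135 and 130.3 with FGF19. Its log2 change was -1.52 ± 0.11 with FGF15 (limma adjusted p = 2.1e-05) and smaller with FGF19, at -0.49 ± 0.11 (limma adjusted p = 0.0173), with a difference of 1.03 ± 0.11 (limma adjusted p = 5.6e-04); the FGF19 call ended without either FGF19 array (0.0789 and 0.0951) or either vehicle array (0.121 and 0.0598), and when arrays were centred (0.0701). The transporter Slc38a2 read 1137 and 1475 with vehicle, 1042 and 1058 with FGF15 and 2689 and 2569 with FGF19. It rose with FGF19, by 1.00 ± 0.10 (limma adjusted p = 1.8e-04), and was 1.30 ± 0.10 higher than with FGF15 (limma adjusted p = 8.0e-05).

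The mitochondrial glutamate carrier Slc25a22 read 1209 and 1146 with vehicle, 776 and 787 with FGF15 and 964 and 988 with FGF19. It fell with both hormones, with log2 changes of -0.57 ± 0.06 and -0.26 ± 0.06 (limma adjusted p = 3.3e-04 and 0.0243), and the FGF19 call ended without either FGF19 array (0.0891 and 0.0543) or either vehicle array (0.18 and 0.0741), and when arrays were centred (0.368) and with eBayes without an intensity trend (0.121). Slc25a44, a mitochondrial carrier of branched chain amino acids, fell with FGF19, with -0.66 ± 0.08 (limma adjusted p = 4.5e-04), and read -0.19 with FGF15. The mean of its probe sets gave -0.36 with FGF19 and was not called (adjusted p = 0.0731). Bhmt2, a relative of Bhmt, fell with FGF19 on its brighter probe set, with -0.45 ± 0.06 (limma adjusted p = 8.8e-04), while the other gave 0.09 with FGF15 and -0.11 with FGF19.

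Of 19 regulators of these genes, 17 were tested, and 3 rose and 5 fell with each hormone. This was 47.1% of them, beside 12.6% of all genes called with FGF15 and 13.6% with FGF19. This list too was chosen with earlier results of these data known. Ppargc1a, a coactivator of fasting genes, read 204 and 198 with vehicle, 31.0 and 29.7 with FGF15 and 111 and 131 with FGF19, changing by -1.90 ± 0.12 (limma adjusted p = 8.2e-06) and -0.61 ± 0.12 (limma adjusted p = 0.00863), the latter not without FGF19 replicate 1 (0.079) or either vehicle array (0.0654 and 0.0515). The FGF15 arrays were the lowest and did not overlap the FGF19 arrays. Cebpb and Cebpa, transcription factors of the liver, moved in opposite ways. Cebpb read 2424 and 2584 with vehicle, 1873 and 1874 with FGF15 and 3098 and 3089 with FGF19, with log2 changes of -0.41 ± 0.06 with FGF15 and 0.30 ± 0.06 with FGF19 (limma adjusted p = 0.00219 and 0.0111), and Cebpa read 1577 and 1507 with vehicle, 1846 and 1904 with FGF15 and 1015 and 1013 with FGF19, with 0.28 ± 0.06 and -0.59 ± 0.06 (limma adjusted p = 0.0176 and 2.2e-04). The Cebpb call with FGF19 ended without vehicle replicate 1 (0.13), and with the mean of all probe sets (0.147) and with eBayes without an intensity trend (0.0897). The Cebpa call with FGF15 ended without either FGF15 array (0.0514 and 0.102) or either vehicle array (0.0783 and 0.141), and with eBayes without an intensity trend (0.112). Klf15, a factor that raises amino acid breakdown in fasting, read 477 and 509 with vehicle, 337 and 416 with FGF15 and 379 and 376 with FGF19, at -0.37 ± 0.10 and -0.36 ± 0.10 (limma adjusted p = 0.0351 and 0.0369). The Klf15 call with FGF15 ended without FGF15 replicate 1 (0.163), either FGF19 array (0.0523 and 0.055) or either vehicle array (0.1 and 0.177), and when arrays were centred (0.166), with no filter on low signals (0.0639), with every probe set tested and no filter (0.0794), with eBayes without an intensity trend (0.122) and with only the arrays compared in the fit (0.0525). That with FGF19 ended without either FGF19 array (0.131 and 0.137) or either vehicle array (0.102 and 0.17), and when arrays were centred (0.236), with no filter on low signals (0.0664), with every probe set tested and no filter (0.083) and with eBayes without an intensity trend (0.122). Nr0b2, the repressor SHP, rose by 1.02 ± 0.09 and 1.03 ± 0.09 (limma adjusted p = 7.4e-05 and 5.8e-05) and Crem, a factor of the cAMP response, by 0.39 ± 0.08 and 0.61 ± 0.08 (limma adjusted p = 0.0135 and 0.0011). The Crem call with FGF15 ended without FGF15 replicate 2 (0.0615) or vehicle replicate 1 (0.102) and with eBayes without an intensity trend (0.0638), and neither Crem call held with the mean of its probe sets (adjusted p = 0.404 and 0.0996). Nr1h4, the bile acid receptor FXR, fell, with log2 changes of -0.29 ± 0.08 and -0.87 ± 0.08 (limma adjusted p = 0.0347 and 6.2e-05), its FGF15 call ending without either FGF15 array (0.101 and 0.125) or either vehicle array (0.169 and 0.134), and when arrays were centred (0.235), with no filter on low signals (0.0538), with every probe set tested and no filter (0.0687) and with eBayes without an intensity trend (0.139). Foxo1, which drives fasting genes when insulin is low, fell with FGF15, with a log2 change of -0.50 ± 0.14 (limma adjusted p = 0.0447), but not without FGF15 replicate 2 (0.212), FGF19 replicate 1 (0.0555) or either vehicle array (0.171 and 0.143), nor when arrays were centred (0.0642), with no filter on low signals (0.0929), with every probe set tested on its own (0.0524), with every probe set tested and no filter (0.112), with eBayes without an intensity trend (0.135) and with only the arrays compared in the fit (0.0571). Nr3c1, the glucocorticoid receptor, fell with FGF19, with -0.33 ± 0.09 (limma adjusted p = 0.0365), but not without either FGF19 array (0.119 and 0.144) or vehicle replicate 2 (0.215), nor when arrays were centred (0.245), with no filter on low signals (0.0577), with every probe set tested and no filter (0.072) and with eBayes without an intensity trend (0.11).

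Markers of liver cell types were measured on the same arrays. Over all tested genes, 6.67% were called lower and 5.91% higher with FGF15, and 7.27% lower and 6.29% higher with FGF19. Between the hormones, 2.41% were called higher with FGF19. The counts below stand beside these shares. All 5 measured hepatocyte markers were uncalled, with a summed signal of 61821 and 60406 with vehicle, 53321 and 57594 with FGF15 and 42409.9 and 56580.5 with FGF19. The sum was lowest on FGF19 replicate 1. All 5 log2 values were below 0 with each hormone. Their median was -0.15 with FGF15 and -0.35 with FGF19, against -0.05 and -0.07 over all genes. Of 7 measured markers of periportal hepatocytes, where the urea cycle is most active, 3 fell with FGF15 and 5 with FGF19, and the list shares Hal with the members. Their summed signal was 18359.5 and 18786 with vehicle, 14682 and 15132 with FGF15 and 13712 and 15059.8 with FGF19. Of 10 markers of pericentral hepatocytes 2 rose with FGF15 and 4 fell with FGF19, with a sum of 24703 and 25140.0 with vehicle, 22968 and 24232 with FGF15 and 20113 and 23323 with FGF19. Among other cells, 10 of 11 Kupffer cell markers fell with FGF15 and 9 with FGF19, and their sum was 6525 and 6427 with vehicle, 3484 and 3608 with FGF15 and 3534 and 3499 with FGF19. For the 8 stellate cell markers 4 fell with FGF15 and 3 with FGF19. Of the 8 endothelial markers 1 fell with FGF15 and 0 with FGF19. Their sum was 1659 and 1698 with vehicle, 1466 and 1464 with FGF15 and 1551 and 1548 with FGF19, lower on every hormone array. Of 3 measured neutrophil markers 2 were lower with FGF15, 1 was lower with FGF19, and 2 were higher with FGF19 than with FGF15, with a sum of 492 and 477 with vehicle, 228 and 234 with FGF15 and 384 and 448 with FGF19. The neutrophil sum was thus lowest with FGF15. No signal was exactly 0. The part of these cell types in the changes of the members was not tested.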

How the data were processed

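Liver RNA was measured on 6 arrays, 2 each for vehicle, FGF15 and FGF19, and groups were taken from the sample titles. The values used were the signal intensities that the authors deposited in the series' value table, on a linear scale; the trimmed mean (2% at each end) is about 200 on every array, as computed from the values. The software, background correction and genome build were not given in the sources used here.

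Probe sets were paired with genes through the platform annotation, updated through Entrez identifiers: 20380 of 22690 had 1 gene, 691 several and 1555 none (64 were controls). For 20351 of the 20380 the symbol came through the identifier, and 29 kept the platform's. The brightest probe set stood for a gene. Signals were taken as log2(signal + 32), which understates the change of low signals. Genes under the 25th percentile (a signal of 14.0) were left out, 2708 genes, none of them a member, leaving 9685. limma 3.58.1 (R 4.3.3; lmFit, eBayes with an intensity trend) was fitted to all 6 arrays with group as the only term, with 3 residual degrees of freedom and two-sided tests, and p-values were adjusted by Benjamini-Hochberg over the 9685 genes. The method was tested on simulated data.

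Every measured member is accounted for. Of the other amino acid genes, up to 6 in each direction called against vehicle with either hormone were named, by the smaller adjusted p, and of the regulators those called in any comparison. The members and lists were chosen with earlier results of these data known. Each array was left out in turn, and scaling, pseudocount, filter, probe set rule, model and threshold were varied; testing every probe set with no filter was added after seeing the data. Only 2 arrays a group limit the precision; an exact permutation test of 2 against 2 arrays cannot go below p = 0.333. Figures were drawn with matplotlib 3.10.9.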

Additional observations from a re-analysis of the deposited data

Results flagged for a closer look

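The named genes below are those whose effects of FGF19 and of FGF15 differed in a direct test (limma, Benjamini-Hochberg adjusted p under 0.05 over all tested genes), each given as the log2 change with FGF19 minus that with FGF15. Because both effects are taken against the same vehicle arrays, the difference is that between the 2 FGF19 and the 2 FGF15 arrays. Among the members these were Csad, at 1.19, and Aass, at 0.30. Both Csad arrays of FGF15 lay below vehicle and both of FGF19 above it, and for Aass the same order held although neither effect was called on its own.

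Outside the members, Slc38a2 (1.30), Asns (1.03), Tat (0.90) and Slc25a22, a mitochondrial glutamate carrier (0.31), were higher with FGF19. Slc7a2, a transporter of arginine, lysine and ornithine that was named after its values were seen, differed by 0.52, with a signal of 816 and 894 with vehicle, 605 and 616 with FGF15 and 911 and 872 with FGF19. Slc25a44, a mitochondrial carrier of branched chain amino acids, was lower with FGF19, at -0.47, but not without FGF19 replicate 1 (adjusted p = 0.0576) or with the mean of its probe sets (adjusted p = 0.238). Bhmt2 was lower, at -0.26, on a probe set of the _s_at kind that can also detect related transcripts. Among the regulators, Ppargc1a (1.29) and Cebpb (0.71) were higher with FGF19, and Cebpa (-0.87) and Nr1h4, the bile acid receptor FXR (-0.58), lower. The differences of Aass, Slc25a22 and Bhmt2 missed the threshold with most single arrays left out: 5, 6 and 6 of the 6 arrays. With eBayes without an intensity trend those of Aass, Slc25a22, Slc25a44, Bhmt2, Nr1h4 and Slc7a2 missed it too.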

How the results depend on the processing

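Across 20 alternatives no called change of a named gene turned its direction, and of the member calls 3 of 8 with FGF15 (Ddc, Got1 and Csad), 2 of 10 with FGF19 (Ddc and Csad) and 1 of 2 between the hormones (Csad) held under all of them. The number of members higher with FGF15, 3 as reported, was 7 when arrays were centred, 0 with eBayes without trend, 5 with only the arrays compared, 5 with the replicate block, 5 at an adjusted p under 0.10 and 1 to 5 with an array left out. Lower with FGF15, 5 as reported, became 3 when centred, 3 without trend and 3 to 6 with an array left out. Higher with FGF19, 4 as reported, became 7 when centred, 1 without trend and 1 to 4 with an array left out. Lower with FGF19, 6 as reported, became 2 when centred, 2 without trend and 2 to 13 with an array left out. Higher with FGF19 than with FGF15, 2 as reported, became 4 with cyclic loess, 1 with no filter, 1 with every probe set tested, 1 without trend, 1 with only the arrays compared, 4 at an adjusted p under 0.10 and 1 to 3 with an array left out. Lower with FGF19 than with FGF15, 0 as reported, became 1 with quantile normalization, 1 with cyclic loess, 1 with the mean of probe sets, 1 with the replicate block, 2 at an adjusted p under 0.10 and 0 to 4 with an array left out. Leaving out an array leaves 1 array in its group, assumed to vary like the others, and fewer degrees of freedom. The share of all genes called is not given for the alternatives, so these shifts cannot be read as particular to the members. Same-numbered arrays did not deviate together (correlations of 0.08, -0.02 and 0.05). This cannot show whether the arrays were paired by design, since a pairing need not leave a shared deviation, and the labels do not say. The replicate block left 5 higher and 6 lower members with FGF15 and 4 and 6 with FGF19. With every probe set tested and no filter, an alternative added after seeing the data, FGF19 lowered 3 members and raised 3, FGF15 lowered 4 and raised 3, and 1 member was higher with FGF19 than with FGF15; Cth with FGF15, Got1, Hpd, Nags and Dmgdh with FGF19 and Aass between the hormones lost their calls. The causes of the other shifts were not tested.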
